A study of Mus musculus with 5 samples.

Results

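Transcripts of 8 genes of the podocyte slit diaphragm and foot process, namely Nphs1, Podxl, Wt1, Synpo, Ptpro, Cd2ap, Actn4 and Magi2, were compared between kidneys of 2 genotypes after ischemic injury. The members were taken by gene name from the 35478 genes that each deposited table lists, and all 8 were found and passed the filter on low counts. Podocytes are the epithelial cells that wrap the glomerular capillaries. Their interlocking foot processes are bridged by the slit diaphragm, a membrane junction built around nephrin, and are held in shape by a contractile actin network, and loss of either part lets protein into the urine. Nphs1, Wt1, Synpo and Ptpro are classical podocyte markers of the adult kidney, whereas Podxl, Cd2ap, Actn4 and Magi2 are also transcribed by other kidney cells.

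Kidney RNA came from 2 Prdm16fl/fl mice (numbered 1 and 3) and 3 Ksp-Cre/Prdm16fl/fl mice (numbered 1, 2 and 3), all males on a C57BL/6J;129 background that were operated on at about the eighth week of life. Every mouse carried the floxed Prdm16 allele and underwent unilateral ischemia-reperfusion injury (UIRI). In this model the left renal pedicle was clamped for 35 minutes with the animal on a bath at 38.5°C, the right kidney was removed at 10 days, and the mice were killed at 11 days. No sham-operated kidney was analysed here, so each value describes an injured kidney. The genotypes differ by the Ksp-Cre transgene, in which the promoter of kidney-specific cadherin drives Cre recombinase in tubular epithelial cells. Podocytes are not a stated target of this Cre. The paper genotyped isolated glomeruli and tubules, and reports from this and from staining that Prdm16 was lost in tubular epithelial cells only. The methods name the kidney cortex, which holds the glomeruli, as the tissue.

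The libraries held between 14939040 and 16425161 counted reads, and Ksp-Cre/Prdm16fl/fl mouse 3 stood apart from the rest, with Pearson's r of log2 CPM across genes of 0.943 to 0.960 to the other 4 libraries against 0.970 to 0.991 among those 4. Prdm16 itself was at 25.3 and 20.02 CPM (the reads of a gene relative to library size, after TMM scaling) in Prdm16fl/fl kidneys and at 17.1, 17.0 and 18.0 CPM in Ksp-Cre/Prdm16fl/fl kidneys, a log2 fold change of -0.38 that did not pass the test (adjusted p = 0.259). The paper describes loxP sites around an exon of Prdm16, whereas the count covers the whole gene, so it does not measure the deletion. In whole tissue, fewer podocytes and less RNA per podocyte cannot be told apart.

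Ptpro and Magi2 had lower values below, though neither passed the adjusted test, and Actn4 did not. The 3 stretches of promoter show the regulatory sequence in front of these members, which were chosen with their values known. They are the bases before the RefSeq start site on GRCm38.p6 that lie outside annotated exons, written 5′ to 3′ along the gene, with matches to GCGNGGGNG in capitals. This is the letter pattern of the zinc finger site shared by WT1, itself a member, and the EGR factors, and it was searched on both strands.
Ptpro (chr6:137252049-137252298, plus strand): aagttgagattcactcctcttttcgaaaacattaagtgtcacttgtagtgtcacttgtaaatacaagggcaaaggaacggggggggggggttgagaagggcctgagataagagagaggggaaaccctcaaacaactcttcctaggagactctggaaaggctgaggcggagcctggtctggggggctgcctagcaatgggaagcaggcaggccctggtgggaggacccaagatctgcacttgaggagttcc
Magi2 (chr5:19226796-19227035, plus strand): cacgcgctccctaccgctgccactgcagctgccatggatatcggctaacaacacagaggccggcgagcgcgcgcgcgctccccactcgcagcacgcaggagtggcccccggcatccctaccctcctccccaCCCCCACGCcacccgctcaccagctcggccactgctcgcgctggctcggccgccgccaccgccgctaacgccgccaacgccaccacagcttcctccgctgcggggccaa
Actn4 (chr7:28962341-28962582, minus strand): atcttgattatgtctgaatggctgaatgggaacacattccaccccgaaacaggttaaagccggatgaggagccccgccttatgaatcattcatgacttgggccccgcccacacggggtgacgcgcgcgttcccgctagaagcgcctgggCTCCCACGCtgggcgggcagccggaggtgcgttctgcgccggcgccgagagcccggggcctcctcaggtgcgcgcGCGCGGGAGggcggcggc
The Magi2 stretch held 1 match, Actn4 held 2 and Ptpro held 0, and 10.5% of 32851 mouse promoter windows of 250 bases held at least 1. G and C made up 72.9% of the Magi2 stretch, 66.9% of Actn4 and 53.6% of Ptpro, and the windows were not matched for this share. A match describes letters only. Promoter windows of 5 of the 8 members were considered. Podxl and Wt1 had no window in the promoter table, and Synpo was left out of the promoter search, so its promoter is not described. The windows of Nphs1 and Cd2ap overlapped annotated exons and are not shown. A window at another start site of Magi2 held 0 matches.

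Nephrin was the member whose transcript changed past the test. Nphs1 fell to 0.555 of its level in Prdm16fl/fl UIRI kidneys (log2 fold change -0.85 with a standard error of 0.11), with an adjusted p of 0.0412 when edgeR tested 16394 genes by quasi-likelihood. Thus 1 of 8 members was called lower where 0.872% of all genes tested were. None of the 8 was called higher by edgeR, which called 0.104% of all genes higher, nor by DESeq2. At an unadjusted p under 0.05, 0 of the 8 were higher, beside 7.64% of all genes. The estimates of Ptpro, Podxl and Magi2 were also below 0 and had unadjusted p-values under 0.05, so that 4 of 8 members were lower at that level beside 11.2% of all genes. The same 4 genes had all 3 Ksp-Cre/Prdm16fl/fl mice below both Prdm16fl/fl mice, a separation seen in 21.3% of genes. Only Cd2ap of the 8 was separated in the opposite direction, as 20.3% of genes were. The median log2 fold change was -0.42 over the 8 members and 0.04 over all genes tested. It was -0.61 over the 4 podocyte markers and -0.17 over the 4 broadly expressed members. The estimates ran from -1.09 to -0.06 and from -0.64 to 0.27, so the 2 sets overlapped. Each set held 2 of the 4 members that were lower at an unadjusted p under 0.05. Adding a limit of 1 on the size of the log2 fold change, which 0.628% of all genes passed as lower, left 0 of the 8.

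**Figure D1:**
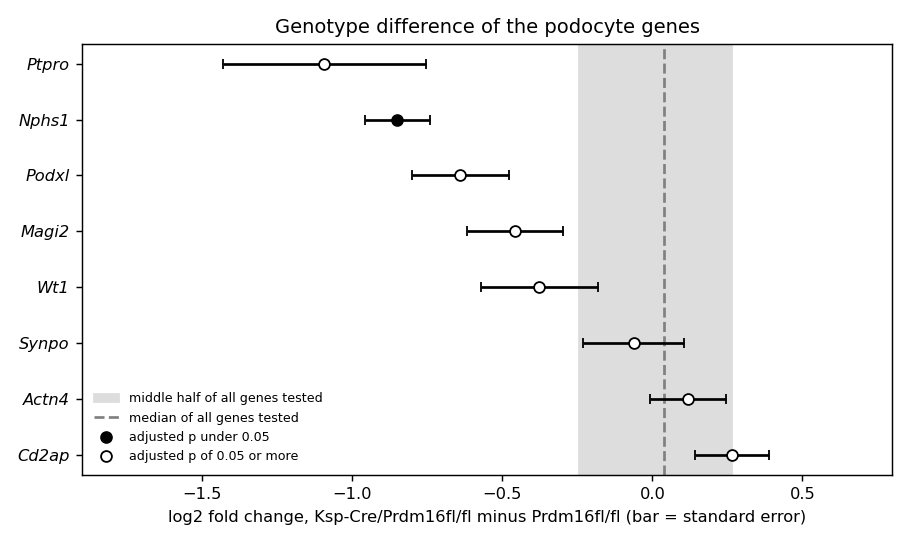
Log2 fold change of each of the 8 genes, Ksp-Cre/Prdm16fl/fl minus Prdm16fl/fl UIRI kidneys, from edgeR, with bars of 1 standard error. The dashed line is the median of all genes tested (0.04) and the grey band their middle 50%, from -0.24 to 0.27; the point of Nphs1 is filled because it alone had an adjusted p under 0.05.

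The call for Nphs1 was lost in fits without either Prdm16fl/fl mouse or without Ksp-Cre/Prdm16fl/fl mouse 1 or 2, in which edgeR called 0 genes of any kind and 1 to 3 members were lower at an unadjusted p under 0.05, beside 5.19% to 9.49% of all genes in the same fits. The estimate for Nphs1 stayed between -0.90 and -0.80 in the fits without one mouse, and between -0.94 and -0.64 in the other settings. Without Ksp-Cre/Prdm16fl/fl mouse 3, the library that stood apart, 5 members were called lower, Nphs1, Podxl, Wt1, Ptpro and Magi2, but so were 11.0% of all genes. DESeq2 on all 5 libraries called Nphs1, Podxl and Ptpro lower, beside 5.26% of all genes.

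Among the components of the slit diaphragm, Nphs1 encodes nephrin, the immunoglobulin-family protein that spans the slit. It stood at 53.9 and 50.01 CPM in the kidneys of Prdm16fl/fl mice 1 and 3 and at 28.3, 29.5 and 28.7 CPM in those of Ksp-Cre/Prdm16fl/fl mice 1, 2 and 3. The means were 52.0 ± 2.77 CPM (SD, n = 2) and 28.8 ± 0.625 CPM (SD, n = 3), so that on this scale the gap between the groups was many times the spread within either. In TPM the groups did not overlap either, at 20.3 and 17.1 against 12.5, 13.0 and 11.2 TPM, but the spread was wider relative to the gap. These values came from 430 to 800 reads per library. The antisense gene Nphs1os shares 597 of the 6102 exon bases of Nphs1 and had at most 1 count in any library.

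Crb2, a polarity protein of the slit, had 9.37 and 7.10 CPM against 5.22, 5.26 and 4.46 CPM (log2 fold change -0.72, adjusted p = 0.176).

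Magi2 encodes a scaffold that binds the tail of nephrin. It was the member of lowest count, with 193 to 259 reads per library, and stood at 17.5 and 16.6 CPM against 11.0, 13.2 and 13.1 CPM. All 3 Ksp-Cre/Prdm16fl/fl values lay below both Prdm16fl/fl values, yet the log2 fold change of -0.46 (standard error 0.16) did not pass the adjusted test (adjusted p = 0.209). Scaled as TPM, which does not use the TMM factors, the groups overlapped, with 4.75 and 4.11 TPM against 3.48, 4.18 and 3.72 TPM.

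Cd2ap encodes the adaptor that links nephrin to actin and to endocytic traffic. It went the other way, at 242.4 and 247.5 CPM in Prdm16fl/fl kidneys and at 297.9, 309.6 and 276.1 CPM in Ksp-Cre/Prdm16fl/fl kidneys. The groups did not overlap, but the log2 fold change of 0.27 (standard error 0.12) was not called (adjusted p = 0.313). Its paralog Sh3kbp1 had 16.2 and 18.3 CPM against 23.7, 22.7 and 17.1 CPM, which overlap.

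Podxl and Ptpro encode proteins of the podocyte surface. Podxl encodes podocalyxin, the sialylated mucin that keeps neighbouring foot processes apart, which endothelial cells also make. It stood at 382.5 and 280.4 CPM against 211.3, 211.9 and 215.0 CPM. The SDs were 1.98 CPM (n = 3) and 72.2 CPM (n = 2), so that nearly all of the spread lay between the Prdm16fl/fl mice, and the log2 fold change of -0.64 (standard error 0.16) had an adjusted p of 0.117. With Prdm16fl/fl mouse 1 left out it was -0.40, and with mouse 3 left out it was -0.85.

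Ptpro encodes GLEPP1, a receptor-type tyrosine phosphatase of the foot process membrane. It had the largest estimate among the 8, a log2 fold change of -1.09, and the largest standard error, 0.34 (adjusted p = 0.169). It stood at 48.5 and 39.5 CPM in Prdm16fl/fl kidneys and at 24.2, 26.0 and 11.5 CPM in Ksp-Cre/Prdm16fl/fl kidneys. The lowest value belonged to mouse 3, and without that library the log2 fold change was -0.81 (adjusted p = 0.0047). Its paralog Ptprj, a phosphatase of many epithelia, had 91.6 and 75.3 CPM against 114.7, 107.7 and 114.9 CPM (log2 fold change 0.43, adjusted p = 0.160).

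The actin-binding members did not separate by genotype. Synpo encodes synaptopodin, which organizes the actin bundles of the foot process and, outside the kidney, dendritic spines. It stood at 108.2 and 79.1 CPM against 83.3, 86.7 and 99.1 CPM, so that all 3 Ksp-Cre/Prdm16fl/fl values lay between the Prdm16fl/fl values. Its log2 fold change of -0.06 had a standard error of 0.17 (adjusted p = 0.872) and turned above 0 under 4 of 16 other settings. Actn4 encodes alpha-actinin-4, an actin crosslinker of podocytes and of many other cells. It stood at 285.2 and 253.4 CPM against 294.5, 280.3 and 302.4 CPM, which overlap (log2 fold change 0.12, standard error 0.13, adjusted p = 0.649).

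Wt1 encodes the zinc finger transcription factor that maintains podocyte identity and activates Nphs1 and Podxl. It stood at 25.5 and 22.3 CPM in Prdm16fl/fl kidneys. Mice 1 and 2 of the Ksp-Cre/Prdm16fl/fl genotype had 16.5 and 16.2 CPM, below both, but mouse 3 had 22.6 CPM, within the Prdm16fl/fl range. It differed by -0.38 on the log2 scale (standard error 0.19, adjusted p = 0.354), or -0.55 without mouse 3 (adjusted p = 0.0222). In mouse 3, then, Wt1 and Ptpro lay at opposite ends of the Ksp-Cre/Prdm16fl/fl range, whereas Nphs1 was close to its value in mice 1 and 2.

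**Figure D2:**
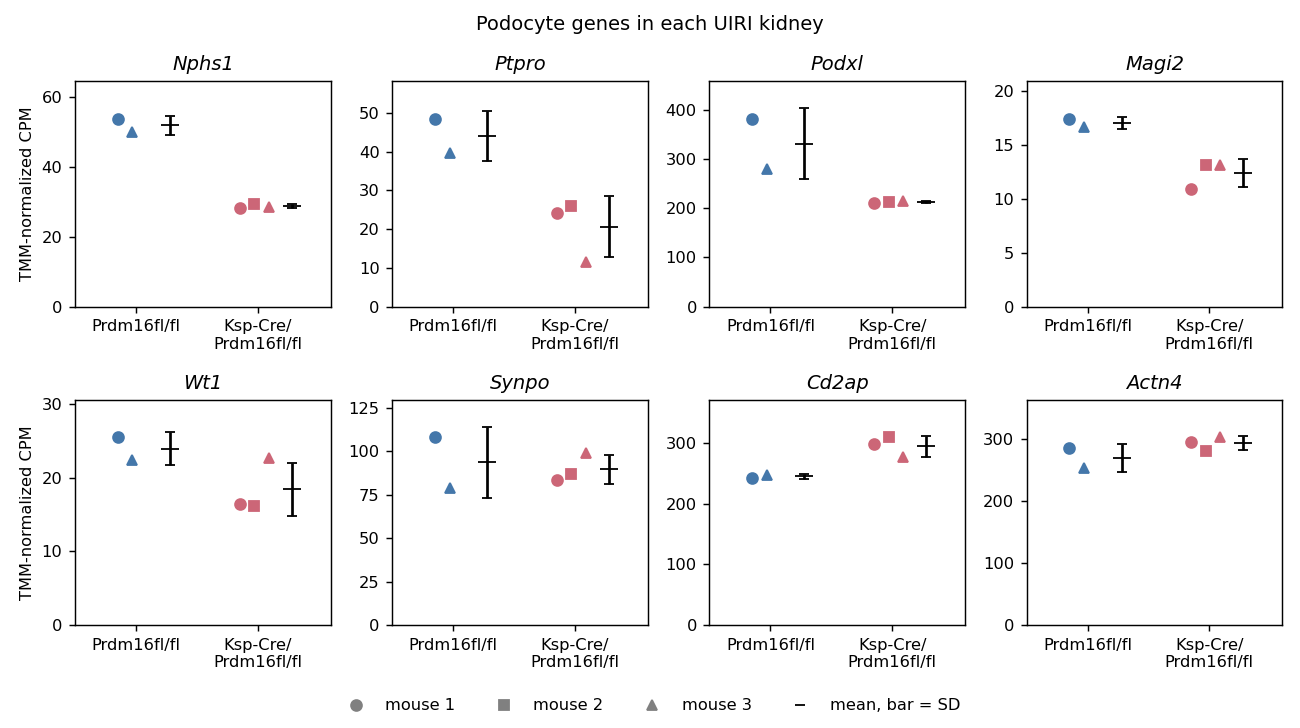
TMM-normalized CPM of the 8 genes in each of the 5 UIRI kidneys, with 1 panel per gene, each axis starting at 0, marker shape giving the mouse number, and the bar showing mean and SD (n = 2 Prdm16fl/fl and n = 3 Ksp-Cre/Prdm16fl/fl). Nphs1, Ptpro, Podxl and Magi2 show all Ksp-Cre/Prdm16fl/fl points below the Prdm16fl/fl points, Cd2ap shows them above, and Wt1, Synpo and Actn4 overlap.

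Levels were compared between genes as TPM, which allows for gene length. In Prdm16fl/fl kidneys Podxl was at 137 ± 39.0 TPM (SD, n = 2), Actn4 at 102 ± 15.5 TPM and Cd2ap at 89.4 ± 4.84 TPM, and the Podxl and Actn4 levels, like those of Actn4 and Cd2ap, overlapped. Synpo (22.9 ± 6.57 TPM), Nphs1 (18.7 ± 2.28 TPM) and Wt1 (17.0 ± 2.75 TPM) followed, with neighbours again overlapping. Ptpro, at 12.6 ± 2.68 TPM, and Magi2, at 4.43 ± 0.454 TPM, were lowest in order. In Ksp-Cre/Prdm16fl/fl kidneys Podxl, at 103 ± 5.76 TPM (SD, n = 3), ranked below Actn4 (129.9 ± 5.78 TPM) and Cd2ap (127 ± 15.1 TPM) in each mouse, and Nphs1 (12.2 ± 0.894 TPM) ranked below Wt1 (15.3 ± 1.92 TPM) in each mouse. Podxl, Actn4 and Cd2ap, which other cells also express, thus led the order in both genotypes, and the order among them differed.

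**Figure D3:**
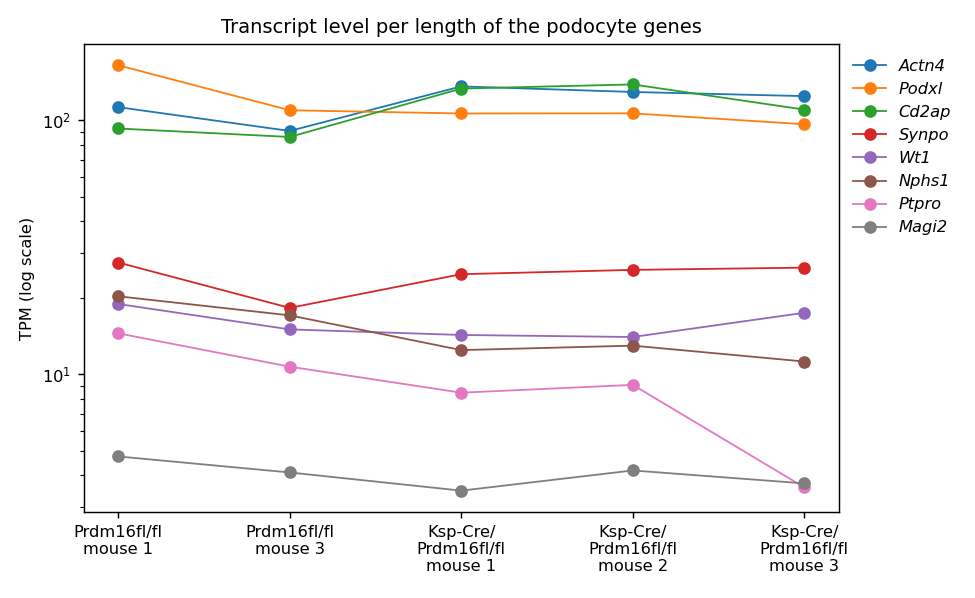
TPM of the 8 genes on a log axis in each of the 5 UIRI kidneys, with lines joining the values of 1 gene only to guide the eye. Podxl leads in both Prdm16fl/fl mice and ranks behind Actn4 and Cd2ap in all 3 Ksp-Cre/Prdm16fl/fl mice, and Ptpro drops to the level of Magi2 in Ksp-Cre/Prdm16fl/fl mouse 3.

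The podocyte transcripts did not move in proportion to each other. The ratio of Synpo to Nphs1 in TPM was 1.36 and 1.07 in Prdm16fl/fl kidneys and 1.99, 1.99 and 2.34 in Ksp-Cre/Prdm16fl/fl kidneys, with no overlap. Podxl kept a ratio to Nphs1 of 8.54, 8.21 and 8.59 in Ksp-Cre/Prdm16fl/fl kidneys, beside 8.12 and 6.42 in Prdm16fl/fl kidneys. The ratio of Ptpro to Nphs1 was 0.715 and 0.628 against 0.680, 0.701 and 0.320, so that mouse 3 alone departed. These ratios are descriptions, and the pairs were chosen after the values were seen. Each has Nphs1, the member called lower, as its denominator, so a gene that held its level would rise in ratio. Measured against the mean log2 CPM of Nphs1, Wt1, Synpo and Ptpro, leaving out the gene itself, Ptpro differed by -0.74 between the genotypes, Nphs1 by -0.31 and Podxl by -0.01. On the same measure Magi2 differed by 0.15, Wt1 by 0.30, Actn4 by 0.73, Synpo by 0.75 and Cd2ap by 0.88. The log2 fold changes of all 4 reference genes were below 0, so a gene that held its level would rise on this measure too. A difference above 0 here is therefore not a rise in level. For Ptpro and Wt1, Ksp-Cre/Prdm16fl/fl mouse 3 departed from mice 1 and 2. Ptpro was at -0.13 and -0.17 in Prdm16fl/fl kidneys against -0.48, -0.41 and -1.79. Wt1 was at -1.36 and -1.27 against -1.22, -1.32 and -0.50. Ptpro and Wt1 each enter the reference of the other, so their departures in mouse 3 are not independent.

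Other genes of the podocyte were read from lists written for this comparison. The 26 further genes listed for podocytes are not all confined to these cells, Vegfa being an example. Of the 26, 21 had a log2 fold change below 0, with a median of -0.40 beside 0.04 over all genes. None passed the adjusted test of edgeR, 10 were lower and 1 higher at an unadjusted p under 0.05, beside 11.2% and 7.64% of all genes, and DESeq2 called 5 lower. They included Cdkn1c, the cell cycle inhibitor p57 of mature podocytes, at 44.4 and 46.6 CPM against 24.98, 26.2 and 17.5 CPM (log2 fold change -0.99, adjusted p = 0.0721). Vegfa, the angiogenic factor that podocytes and tubules both secrete, stood at 450 and 392 CPM against 246, 246 and 197 CPM (-0.87, adjusted p = 0.0610). Shisa3 (-0.99) and Rab3b, a vesicle GTPase (-1.01), had adjusted p-values of 0.0726 and 0.109.

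The remaining 15 of 17 listed slit diaphragm and adaptor genes that could be tested had a median of 0.27, with 13 above 0. Many of these genes are not confined to podocytes, so their whole-kidney values do not describe the slit diaphragm alone. At an unadjusted p under 0.05, 2 genes of this list were lower, Crb2 among them, and 2 were higher, Tjp1 (0.34, adjusted p = 0.187), a tight junction scaffold of most epithelia, and Vangl2 (0.55, adjusted p = 0.208). edgeR called 0 of them after adjustment and DESeq2 called 1. The 22 genes listed for the foot process actin network and its adhesions are likewise not all confined to podocytes. Of these, 14 were above 0 with a median of 0.13. edgeR called 0, 5 were higher and 2 lower at an unadjusted p under 0.05, and DESeq2 called 1. Those with the smallest p were Itga3 (0.51, adjusted p = 0.129) and Itgb1 (0.48, adjusted p = 0.130), the chains of the laminin-binding integrin of podocytes and tubules, then Slc9a3r1 (-0.54, adjusted p = 0.162) and Cttn (0.34, adjusted p = 0.217).

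Of 10 genes listed as podocyte transcription factors, 5 were above and 5 below 0, with a median of 0.02. The list also holds Efnb1, which encodes the membrane ligand ephrin-B1 and is not a transcription factor. Lmx1b, a homeodomain factor of podocytes, had 5.39 and 3.59 CPM against 2.10, 2.89 and 2.53 CPM (log2 fold change -0.84, adjusted p = 0.220). Tead1, a partner of YAP in many cells, was at 100.4 and 94.5 CPM against 151.3, 152.4 and 151.2 CPM (0.64, adjusted p = 0.0552), and Efnb1 at 0.53 (adjusted p = 0.187). edgeR called 0 of the 10, 2 were higher and 1 lower at an unadjusted p under 0.05, and DESeq2 called 1. Of 10 glomerular basement membrane genes, edgeR called 0, with 2 higher and 2 lower at an unadjusted p under 0.05, and DESeq2 called 2. Col4a3 and Col4a4, chains of the mature membrane collagen, had log2 fold changes of -0.62 and -0.40 (adjusted p = 0.146 and 0.188). Nid1 and Lamc1, found in basement membranes throughout the kidney, had 0.64 and 0.42 (adjusted p = 0.138 and 0.135). Of the paralogs of the 8 members, 12 could be tested, with a median of 0.25. edgeR and DESeq2 each called 0 of these, and 2, Magi3 (0.47) and Ptprj, were higher at an unadjusted p under 0.05.

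**Figure D4:**
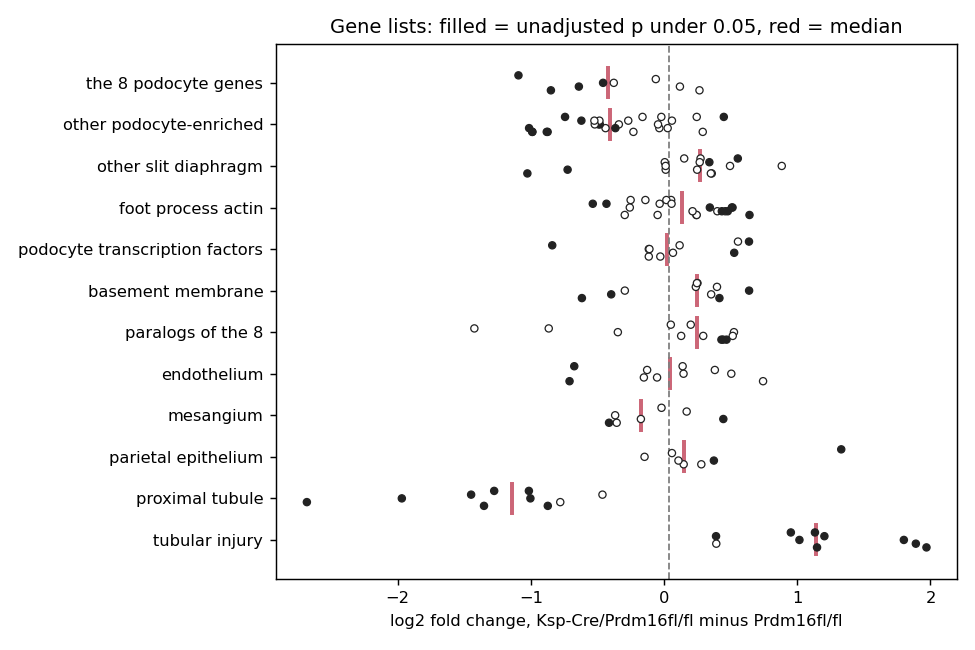
Log2 fold change of every tested gene in 12 lists, Ksp-Cre/Prdm16fl/fl minus Prdm16fl/fl UIRI kidneys, filled where the unadjusted p was under 0.05, with the list median in red and the median of all genes dashed. The 8 podocyte genes and the other podocyte-enriched genes have medians of -0.42 and -0.40, between the proximal tubule markers at -1.15 and the median of all genes. Efnb1, on the list of podocyte transcription factors, is not such a factor.

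Markers of other cells moved with the genotype as well. The summed level of 10 proximal tubule markers, all of them lower, was 9700 to 10320 CPM in Prdm16fl/fl kidneys and 4213 to 5064 CPM in Ksp-Cre/Prdm16fl/fl kidneys. Slc22a8, an organic anion transporter, was the one that edgeR called, at 343.7 and 470.9 CPM against 73.8, 67.0 and 49.6 CPM (log2 fold change -2.68, adjusted p = 0.0242), while 8 of the 10 were lower at an unadjusted p under 0.05. The summed level of 10 tubular injury markers, all higher, was 15269 to 15852 CPM against 32606 to 38483 CPM. Most of this sum was Spp1, at 12277 and 13442 CPM against 27016, 28061 and 33774 CPM. The median log2 fold change of the 10 was 1.14. Krt19, a keratin of injured and ductal epithelium, was the one called by edgeR, at 11.5 and 11.5 CPM against 49.0, 32.0 and 53.9 CPM (log2 fold change 1.97, adjusted p = 0.0412), and 9 of the 10 were higher at an unadjusted p under 0.05. The summed level of 5 red blood cell markers was 6.67 to 10.8 CPM against 40.5 to 151 CPM. None of the markers on these 3 lists was at 0 in all libraries, and their part in the lower podocyte values was not tested. Of 10 endothelial genes tested, 5 were above and 5 below 0 (median 0.04). Among them Ehd3, a marker of glomerular endothelium, had 39.2 and 30.9 CPM against 22.9, 16.1 and 25.3 CPM (log2 fold change -0.71, adjusted p = 0.172), and Kdr, the VEGF receptor, -0.67 (adjusted p = 0.187). Estimates above 0 included Flt1 (0.74, adjusted p = 0.408), Plvap (0.50, adjusted p = 0.431) and Tie1 (0.38, adjusted p = 0.317). edgeR called 0 of the 10, with 2 lower at an unadjusted p under 0.05, and DESeq2 called 0.

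The genes whose pattern over the 5 libraries lay nearest to that of Nphs1 were not podocyte genes on any of the lists. Likeness was taken as the root mean square difference of log2 CPM, centred on each gene's mean, over 13872 genes. The nearest were Glyctk (0.034), 2610306M01Rik (0.046), Tef (0.054), Qdpr (0.055) and Pex10 (0.059). Glyctk, a glycerate kinase of serine and fructose breakdown, stood at 93.2 and 91.2 CPM against 49.95, 51.7 and 52.6 CPM. Tef is a transcription factor with a circadian rhythm and Qdpr regenerates tetrahydrobiopterin. Of the other members, Podxl was nearest to Nphs1, at rank 225 (0.155), ahead of Magi2 at rank 595 (0.207), and Cd2ap was farthest, at rank 9313.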

How the data were processed

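RNA-seq of 5 mouse kidneys, 1 library per mouse, was analysed by genotype as the labels give it; the methods say that controls were littermates, and which of these mice shared a litter is not given in the sources used here. The authors deposited raw counts per gene, with TPM and FPKM made from those counts; FPKM recomputed from the counts differed by rounding only. The submitters' processing notes name CASAVA, featureCounts 2.0.1, DESeq2 1.16.1 and hg38, a human build, although the genes are of mouse. The mouse build, the aligner and the strand setting are not given in the sources used here, and the files' coordinates are not those of GRCm38, so none are printed. Lines of 5 genes were broken and were rejoined.

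In R 4.3.3, edgeR 4.0.16 kept 16394 genes by filterByExpr, scaled them with TMM and compared the genotypes by its quasi-likelihood test with no covariate. Calls needed an adjusted p (Benjamini-Hochberg, over every gene kept) below 0.05, and unadjusted p-values were counted at the same level. DESeq2 1.42.0 was the other count test and limma 3.58.1 was run on log2(FPKM + 1) and log2(FPKM + 0.1). The edgeR comparison was first tested on simulated counts. Members and lists were chosen with earlier results of these data known. Named genes are the 8 members, the called genes of each list or else the up to 4 of smallest p (narrowed, after the values were seen, to those under 0.05 unadjusted and to the lists of glomerular cells), Prdm16 and the 5 genes most like Nphs1. The values of 1 gene on the slit diaphragm list are not reported here. Sh3kbp1 was named as the paralog of Cd2ap after its values were seen. Flt1, Plvap and Tie1 were likewise named after their values were seen, as endothelial genes with estimates above 0. Promoters are RefSeq windows (GRCm38.p6). Lists of other tubule segments, mesangium, parietal cells, fibroblasts and leukocytes were also written, and their values are in the closing section. Likeness to Nphs1 was ranked over genes whose log2 CPM averaged 1 or more. Figures were made in matplotlib 3.10.9 from tables built with pandas 2.3.3.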

Additional observations from a re-analysis of the deposited data

How the results depend on the processing

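The count of genes called, 160, was 471 without a filter beyond 1 count in total, 1162 with DESeq2, 51 when only library size was scaled for, 69 by limma after log2(FPKM + 1) and 49 by limma after log2(FPKM + 0.1), 33 with the gene length trend removed and 42 with the gene length and GC trend removed, the last an alternative chosen after seeing the data. Of the members, DESeq2 called 3 and 0 were called with library size scaling, either limma fit, the length trend removed (Nphs1 adjusted p = 0.0503) or a log2 fold change of at least 1, with 3 or 4 members lower at an unadjusted p under 0.05 in each of these fits, beside 6.71% to 9.53% of all genes. Fits without one mouse called between 0 and 3053 genes and between 0 and 5 members, with 1 (without Prdm16fl/fl mouse 1) to 5 members lower at an unadjusted p, beside 5.19% to 17.7% of all genes. The members' median was -0.23 with limma on log2(FPKM + 1), where the pseudocount shrinks changes of weakly expressed genes, and between -0.52 and -0.30 in the other settings. Synpo reversed with library size scaling (0.041), limma (0.056 with a pseudocount of 1, 0.062 with 0.1) and without Prdm16fl/fl mouse 1 (0.18), its range without one mouse being -0.27 to 0.18. Scaling by library size moved the median of all genes from 0.04 to 0.15. The cause of these shifts was not tested. The mouse numbers do not state a pairing, and deviations of same-numbered mice correlated at 0.12 and 0.06. With the mouse number as a replicate block 0 genes and 0 members were called, 3 members and 8.44% of all genes were lower at an unadjusted p under 0.05 and Nphs1 was at -0.87 (adjusted p = 0.198).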

Other observations

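Other cell types of the glomerulus and nephron gave the following values. Of 7 mesangial markers, 5 were below 0 with a median of -0.17. Pdgfrb, a receptor of mesangial cells and pericytes, stood at 47.0 and 51.2 CPM in Prdm16fl/fl kidneys and at 70.1, 65.6 and 64.7 CPM in Ksp-Cre/Prdm16fl/fl kidneys (log2 fold change 0.44, adjusted p = 0.113), and Agtr1a, an angiotensin receptor, had -0.41 (adjusted p = 0.229). edgeR and DESeq2 each called 0 of the 7, with 1 higher and 1 lower at an unadjusted p under 0.05. Of 7 parietal epithelial markers, 6 were above 0. Akap12, a scaffold of the cell cortex, was at 57.0 and 64.6 CPM against 126.9, 96.8 and 234.7 CPM (1.33, adjusted p = 0.150), and Cd9 at 184.0 and 204.5 CPM against 248.8, 242.4 and 264.1 CPM (0.37, adjusted p = 0.190). edgeR called 0 of the 7 and DESeq2 called 1, with 2 higher at an unadjusted p under 0.05.

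The medians were -0.71 for 5 thick ascending limb markers, -1.14 for 4 distal convoluted tubule markers, -0.60 for 6 collecting duct markers, 0.63 for 7 fibroblast markers and 0.04 for 8 leukocyte markers. edgeR called 0 genes on these 5 lists, DESeq2 called 2, 0, 1, 2 and 1, and 2, 2, 1, 4 and 1 had an unadjusted p under 0.05.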
